A study of Rattus norvegicus with 6 samples.

Results

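Collagen genes encode the chains of the triple-helical proteins that make up most of the fibrous extracellular matrix. They were taken as every row of the deposited count table whose symbol has the form of a collagen chain (Col, the type, a and the chain number), which gave 42 genes of 30498 in the table. Of these, 33 had enough counts in the 6 libraries for the main test, and the other 9 are given by their counts. The rule reads gene symbols only. No row carried the symbol Col4a4, Col4a5 or Col21a1, and rows without a symbol were not matched, so the families may be incomplete. By the type of assembly, 11 were fibrillar, 6 belonged to basement membranes or the zone beside them, and 9 were FACIT chains (fibril-associated collagens with interrupted triple helices). A further 3 were network-forming, 4 were transmembrane, and 9 fell into none of these groups (the beaded filament type VI, the anchoring fibril type VII, and types XXVI and XXVIII).

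The libraries came from rat cells labelled as mesenchymal stem cells, of the WT genotype. The 3 rcMSC libraries are of cells from cranial bone marrow, and the 3 rbMSC libraries of cells from the marrow of the long bones of the leg, femur and tibia. Both groups carry the same genotype and cell type labels, with no agent, deletion or transgene. The sources used here do not give strain, age or any culture step, and nothing states whether a group's 3 libraries are of separate animals or cultures, so that p-values measure the spread between these libraries only, which may be technical. The study compared the expression profiles of these cells, under a title on transplanting cranial bone cells after spinal cord injury.

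Total counts were between 21340290 and 26928079 per library. Of the marker list for mesenchymal stromal cells, 8 of 8 genes were detected in both groups, with 2 higher and 5 lower in rcMSC and summed levels of 4907 to 4936 CPM in rbMSC and 3279.6 to 3829 in rcMSC (CPM is the count relative to library size, scaled between libraries by the TMM method). Of 9 macrophage markers tested 5 were lower and 0 higher, and the list summed to 970.2 to 974 CPM in rbMSC and 586 to 622 in rcMSC, endothelial markers to 18 to 21.5 and 20.1 to 23.9, and epithelial markers to 5.89 to 7.56 and 3.02 to 3.72. Of the genes tested, 87.5% of the stromal and 55.6% of the macrophage list passed an edgeR adjusted p under 0.05. Over all 14836 genes tested 45.8% passed, 22.6% higher and 23.2% lower. Every macrophage marker that passed was lower, so its 55.6% stands beside the 23.2%. These all-gene shares belong beside every later count by list or family. The part of the stromal and macrophage lists in the results on collagen genes was not tested. The third rcMSC library stood apart from its group. Counts of rcMSC replicate 3 differed from those of replicates 1 and 2 with a chi-square of 42.8 and 42 per degree of freedom, against 2.69 to 3.16 for the other pairs within a group. Of the 33 collagen genes tested, 25 were higher in rcMSC replicate 3 than in both other rcMSC libraries and 3 were lower. The same share over all genes was not computed, so this count is not read as particular to collagen genes. Results are therefore given with and without that library where it matters.

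Fibrillar collagens assemble from 3 chains into long triple helices that pack side by side into fibrils, with type I the main collagen of bone, tendon and skin. FACIT collagens sit on the surface of these fibrils, network collagens form sheets or lattices, and basement membrane collagens form the mesh below epithelia and around vessels, muscle and fat cells. Stromal cells of bone marrow are a main source of fibrillar collagen.

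Collagen genes took a larger share of the counts in rcMSC. In rbMSC replicates 1 to 3 the share was 7.61%, 7.49% and 7.56% of all counts, and in rcMSC it was 9.86%, 9.98% and 11.6%. The groups did not overlap, with means of 7.55% ± 0.06 and 10.5% ± 0.98 (SD, n = 3 each) and a ratio of 1.39, or 1.31 without rcMSC replicate 3. An exact two-sided permutation test gave p = 0.1, the smallest that 3 libraries against 3 allow. Without the 3 collagen genes with most counts, Col1a1, Col1a2 and Col3a1, the shares were 3.42%, 3.31% and 3.34% in rbMSC and 3.35%, 3.46% and 4.06% in rcMSC, and the groups overlapped (exact permutation p = 0.2).

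Of the 33 collagen genes tested with the quasi-likelihood F test of edgeR at an adjusted p under 0.05, 10 were higher and 13 lower in rcMSC. This is 69.7% of those tested, against 45.8% of all 14836 genes tested (22.6% higher and 23.2% lower). Many of these collagen genes are abundant and the all-gene share was not matched for level, so these shares are not like for like. At least 2-fold changes were found in 5 genes upward and 6 downward, where 5.76% and 8.53% of all genes changed that much. The groups did not overlap in 24 of the 33 genes, 10 higher and 14 lower, against 57.1% of all genes. The median log2 fold change (rcMSC over rbMSC throughout) was -0.08 over the 33 genes and 0.02 over all genes tested. Without rcMSC replicate 3, 10 were higher and 16 lower, and all 23 genes called with 6 libraries were called in the same direction. Calls over all genes also rose without that library, to 4512 higher and 4558 lower of 15096 tested. Further calls in that run are therefore not particular to collagen genes. Collagen genes are long, with a median gene model of 6146 bases among those tested against 2960 for all genes tested. When the trend of each library with gene length was removed, 13 collagen genes were higher and 11 lower, and over all genes the split went from 3351 higher and 3445 lower to 4292 and 2857. RNA was measured in bulk, so fewer cells of a type and less RNA per cell cannot be told apart.

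**Figure D1:**
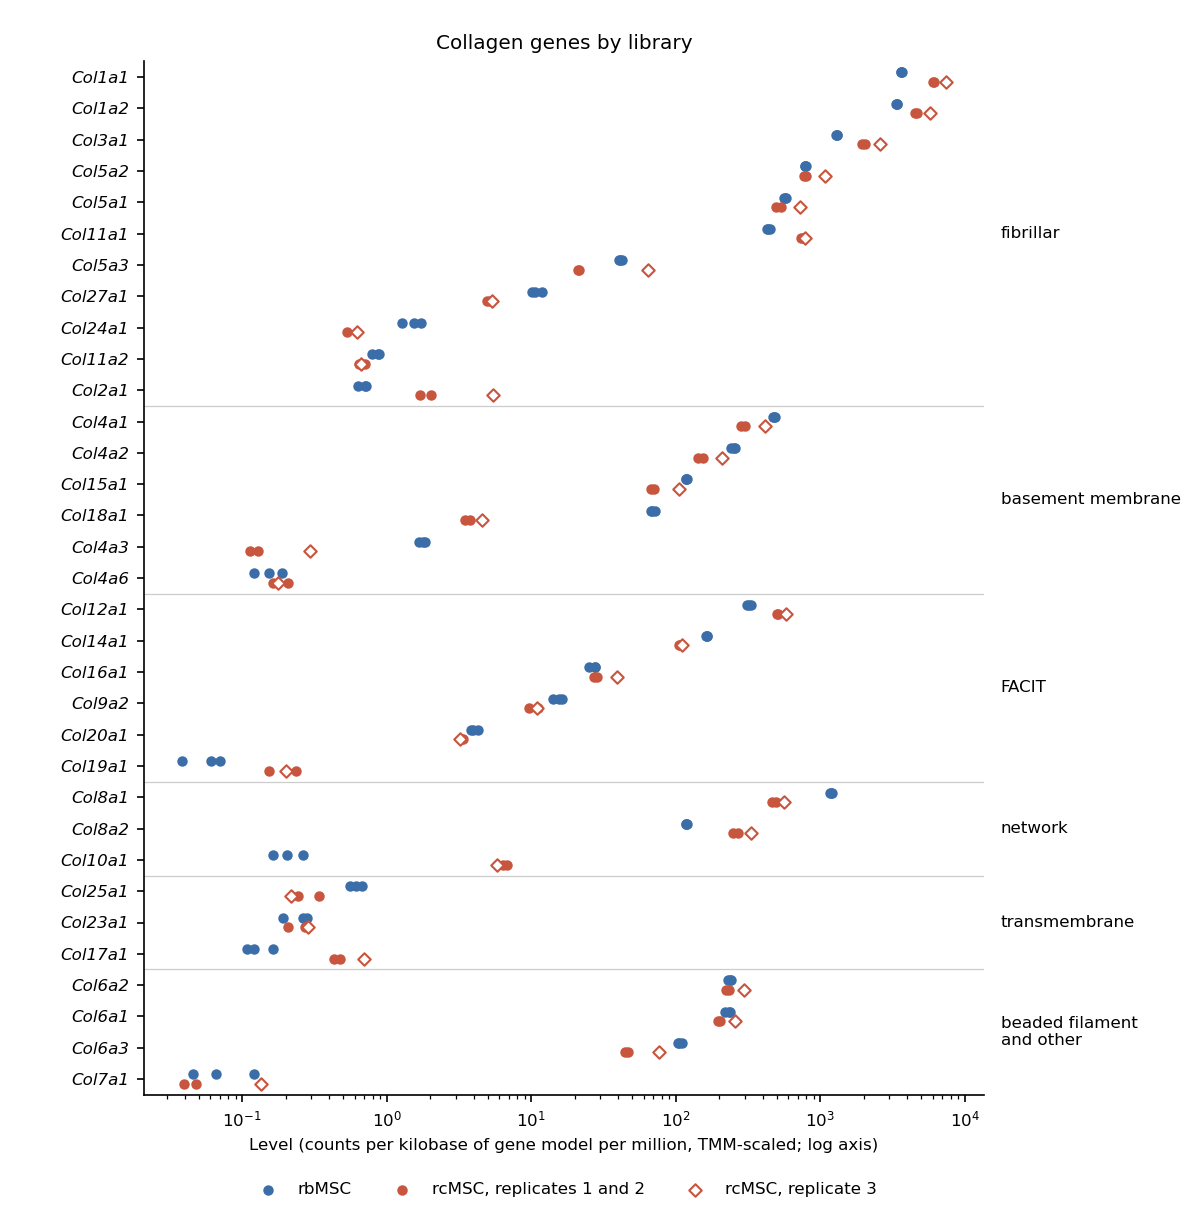
Level of each of the 33 collagen genes tested in each library, in CPM per kilobase of gene model on a log axis, by family. Blue points are the 3 rbMSC libraries, filled red points rcMSC replicates 1 and 2, and open diamonds rcMSC replicate 3. Col1a1 and Col1a2 lie at the top of the scale in every library, and the groups are farthest apart for Col10a1, Col18a1 and Col4a3.

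**Figure D2:**
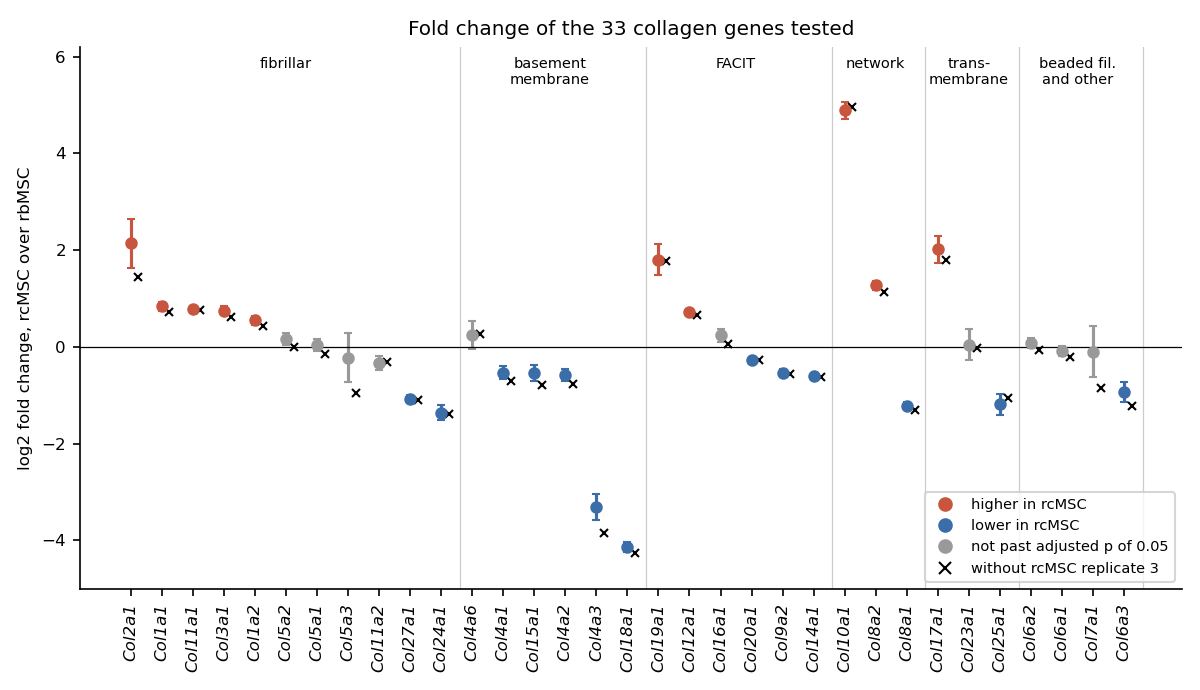
Log2 fold change (rcMSC over rbMSC) of the 33 collagen genes tested, by family, with bars of 1 standard error. Red points passed the edgeR threshold upward (10 genes), blue points downward (13) and grey points did not pass (10), and crosses give the value without rcMSC replicate 3, which for Col5a3 moved from -0.22 to -0.96.

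Col1a1, Col1a2, Col3a1, Col11a1 and the far rarer Col2a1 rose in rcMSC, Col24a1 and Col27a1 fell, and the 3 type V genes and Col11a2 did not pass. Of 11 fibrillar genes, all tested, 5 were higher, 2 were lower and 4 did not pass in edgeR, or 5 and 4 without rcMSC replicate 3. Col1a1 and Col1a2 encode the chains of type I collagen, Col3a1 that of type III, which forms fibrils with type I in soft tissue, and Col11a1 a chain of type XI, which helps to set fibril diameter in cartilage and other tissues.

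In rbMSC replicates 1 to 3, Col1a1 (ENSRNOG00000003897, chromosome 10, 79883622 to 79900624 in mRatBN7.2) had 21247, 21001 and 21340.3 CPM. In rcMSC it had 35572, 34912 and 43167, above every rbMSC library, with replicate 3 the highest. The means were 21196 ± 175 and 37884 ± 4587 CPM (SD, n = 3 each), an edgeR log2 fold change of 0.84 ± 0.09 SE (adjusted p = 3.21e-05). Per kilobase of gene model, Col1a1 ranked 3 among all genes of the table in rbMSC and 1 in rcMSC.

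Its partner Col1a2 (ENSRNOG00000011292, chromosome 4, 32563381 to 32598867) rose less. It had 15800.4, 15961 and 15895 CPM in rbMSC and 21162, 21821 and 26814 in rcMSC, with no overlap (edgeR log2 fold change 0.55 ± 0.09 SE, adjusted p = 0.000718). Col3a1 (ENSRNOG00000003357, chromosome 9, 47374593 to 47410547) had 6290.1, 6150 and 6249 CPM in rbMSC and 9317, 9853 and 12362 in rcMSC (edgeR log2 fold change 0.75 ± 0.10 SE, adjusted p = 0.000166). For Col1a1, Col1a2 and Col3a1 the third rcMSC library was the highest, and without it the log2 fold changes were 0.73, 0.44 and 0.62.

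Col11a1 (ENSRNOG00000023148, chromosome 2, 201820715 to 202013853) had 3476, 3318 and 3350.2 CPM in rbMSC. In rcMSC it had 5696, 5824 and 5982, so that the 3 rcMSC libraries were close together and well above rbMSC (edgeR log2 fold change 0.79 ± 0.06 SE, adjusted p = 2.5e-06). The other type XI gene, Col11a2, lay at 5.11 to 5.70 CPM in rbMSC and 4.19 to 4.57 in rcMSC, lower in all rcMSC libraries but short of the threshold (edgeR log2 fold change -0.33, adjusted p = 0.0763).

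Col2a1 (ENSRNOG00000058560, chromosome 7, 129098786 to 129127546), the chain of type II collagen, the main collagen of cartilage, was low in both groups. It had 2.99, 3.33 and 3.41 CPM in rbMSC and 8.01, 9.68 and 25.6 in rcMSC. The log2 fold change was 2.14 (SE 0.50, edgeR adjusted p = 0.0144), and the third rcMSC library was 2.89 times the mean of the other two. Without that library it was 1.44 (edgeR adjusted p = 1.72e-11), and with no low-count filter it did not pass (adjusted p = 0.061).

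Type V collagen, which nucleates type I fibrils, did not pass in any of its 3 chains in the edgeR test with all libraries. Col5a1 had 4007, 3883 and 4004 CPM in rbMSC and 3464, 3703 and 5026 in rcMSC, and Col5a2 had 4913, 4828 and 4844 against 4762, 4920.5 and 6677. For both genes, rcMSC replicate 3 lay above all rbMSC libraries, and replicates 1 and 2 lay below them apart from Col5a2 in replicate 2. Col5a3 had 262, 248 and 254 CPM in rbMSC, and 130.2, 132 and 397 in rcMSC, where replicate 3 was 3.03 times the mean of the others and lay above all rbMSC libraries. With all libraries the log2 fold changes were 0.04 for Col5a1, 0.17 for Col5a2 and -0.22 for Col5a3 (edgeR adjusted p = 0.836, 0.276 and 0.761). Without rcMSC replicate 3 they were -0.15, -0.01 and -0.96, and Col5a1 and Col5a3 passed as lower (edgeR adjusted p = 1.13e-05 and 1.02e-27). Leaving out rcMSC replicate 1 or 2 put Col5a3 at 0.05. With all 6 libraries, Col5a3 passed as lower in limma voom with sample weights (-0.84, adjusted p = 0.049), and Col5a2 passed as higher in edgeR with the length trend removed (0.32, adjusted p = 0.0175).

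Col27a1 and Col24a1, fibrillar chains of developing cartilage and bone that are far less abundant, fell. Col27a1 (ENSRNOG00000007657, chromosome 5, 76647429 to 76765174) had 79.9, 71.7 and 68.2 CPM in rbMSC and 34.9, 33.3 and 36.3 in rcMSC (edgeR log2 fold change -1.07 ± 0.08 SE, adjusted p = 1.87e-06). Col24a1 (ENSRNOG00000014143, chromosome 2, 234212324 to 234469441) had 11.6, 8.52 and 10.3 CPM in rbMSC and 3.53, 4.16 and 4.12 in rcMSC (edgeR log2 fold change -1.36 ± 0.15 SE, adjusted p = 5.15e-05). All 3 rcMSC libraries lay below all rbMSC libraries for both genes.

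Every basement membrane gene that passed was lower in rcMSC. Of 6 tested, 5 were lower, 0 higher, and Col4a6 (edgeR log2 fold change 0.24, adjusted p = 0.517) did not pass. The same count of 5 lower was found without rcMSC replicate 3. Col4a6 was the only one of the 6 with a positive value, and it did not pass under any alternative run, DESeq2 and limma voom included.

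Col18a1 (ENSRNOG00000001229, chromosome 20, 11474104 to 11582593), whose C-terminal fragment is endostatin, fell the most of the 33 genes tested. It had 502, 477 and 469.9 CPM in rbMSC against 24, 26.3 and 31.6 in rcMSC, so that the groups were far apart and each was tight. The means were 483 ± 16.6 and 27.3 ± 3.9 CPM (SD, n = 3 each), 17.7-fold lower in rcMSC (edgeR log2 fold change -4.14 ± 0.10 SE, adjusted p = 1.17e-09). Col15a1 (ENSRNOG00000060381, chromosome 5, 61501963 to 61607591), its closest relative, fell less, from 635, 654 and 639 CPM to 366, 384 and 575 (edgeR log2 fold change -0.54 ± 0.16 SE, adjusted p = 0.0298). The third rcMSC library was the nearest to rbMSC. The call for Col15a1 was lost on leaving out any 1 rbMSC library (replicates 1 to 3 in turn) or either of the first rcMSC pair (edgeR adjusted p = 0.0608, 0.0679, 0.0583, 0.064 and 0.0807), with the length trend removed (0.0534) and with no low-count filter (0.115). Leaving out rcMSC replicate 3 gave -0.78 (edgeR, adjusted p = 6.09e-27).

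Col4a1 and Col4a2 form the common type IV heterotrimer of all basement membranes. They are divergent neighbours on chromosome 16, Col4a1 (ENSRNOG00000016281) from 78183533 to 78294412 on the plus strand and Col4a2 (ENSRNOG00000023972) from 78047602 to 78183839 on the minus strand. In the deposited annotation the gene models overlap by 307 bases at their 5′ ends. In the RefSeq table of the GRCr8 build, the starts of the pair are 76 bases apart and transcribed away from each other, over this stretch of chr16:84885521-84885596 on the strand of Col4a1, with the GC box found there (GGGCGG on the other strand) in capitals. It is shown because the pair moved together.
Col4a1-Col4a2: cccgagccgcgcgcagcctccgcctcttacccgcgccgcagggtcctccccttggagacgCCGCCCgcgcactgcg

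Col4a1 had 3229.9, 3123 and 3152 CPM in rbMSC and 1877, 1986 and 2737 in rcMSC, lower in all 3 (edgeR log2 fold change -0.53 ± 0.13 SE, adjusted p = 0.00963). Col4a2 had 1908, 1788 and 1869.5 against 1049.8, 1146 and 1532 (edgeR log2 fold change -0.58 ± 0.13 SE, adjusted p = 0.00554). For both, rcMSC replicate 3 was the nearest to rbMSC, and without it the values were -0.71 and -0.76. With no low-count filter Col4a1 just missed the threshold (adjusted p = 0.0513). Col4a3 (ENSRNOG00000015365, chromosome 9, 83875561 to 84001895), a chain of the type IV network of the kidney glomerulus, had 10, 9.65 and 9.07 CPM in rbMSC and 0.619, 0.7 and 1.6 in rcMSC, 9.92-fold lower (edgeR log2 fold change -3.31 ± 0.27 SE, adjusted p = 7.11e-06). Its value was -3.85 without rcMSC replicate 3.

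Pericytes, which make basement membrane around small vessels, share genes with marrow stromal cells. Of 8 pericyte markers, 7 were tested, 6 were lower and 0 higher in rcMSC in edgeR, against 23.2% and 22.6% of all genes tested. The summed level of the list was 846 to 856 CPM in rbMSC and 93.3 to 182 in rcMSC. None of the 8 was at 0 in all libraries. The list moved in the same direction as the basement membrane collagens, and its part in their change was not tested. Endothelial markers, of which 1 of 8 tested was higher and 1 lower, had summed levels of 18 to 21.5 CPM in rbMSC and 20.1 to 23.9 in rcMSC, close to each other.

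FACIT genes changed in both directions. Of 9, 6 were tested, of which 2 were higher, 3 were lower and 1 did not pass in edgeR, and the counts were the same without rcMSC replicate 3. Col12a1 (ENSRNOG00000058470, chromosome 8, 80547593 to 80665686), a linker on type I fibrils in tendon, periosteum and loaded tissue, had 4765, 4652 and 4539 CPM in rbMSC and 7243, 7377 and 8400.1 in rcMSC. It rose with no overlap (edgeR log2 fold change 0.72 ± 0.07 SE, adjusted p = 2.2e-05). Its close relative Col14a1 (ENSRNOG00000026415, chromosome 7, 86722094 to 86937214), found on mature fibrils, went the other way. It had 1176, 1143 and 1158 CPM in rbMSC and 742, 757 and 783 in rcMSC, again with no overlap (edgeR log2 fold change -0.61 ± 0.05 SE, adjusted p = 9.68e-06).

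Col16a1, a FACIT of smooth muscle, skin and cartilage, had 148, 135 and 146 CPM in rbMSC and 145, 151 and 210.1 in rcMSC. The groups overlapped and it did not pass (edgeR log2 fold change 0.24, adjusted p = 0.168), though it did with the length trend removed (0.39, edgeR adjusted p = 0.018). Col9a2, a chain of the cartilage FACIT type IX, fell from 43.8 to 50.8 CPM in rbMSC to 30 to 34.6 in rcMSC (edgeR log2 fold change -0.54, adjusted p = 0.000505). The partner chains Col9a1 and Col9a3 had 5 and 12 counts in all 3 rbMSC libraries together and 7 and 11 in rcMSC, and were not tested. Col20a1 was lower by a small step (edgeR log2 fold change -0.28, adjusted p = 0.00722), and its call was lost with the length trend removed (-0.06, edgeR adjusted p = 0.559). Col19a1 (ENSRNOG00000012759, chromosome 9, 26675391 to 27022106), a rare chain, rose from 0.655, 0.562 and 0.356 CPM to 1.42, 2.17 and 1.88, a total of 36 counts against 145 (edgeR log2 fold change 1.80 ± 0.32 SE, adjusted p = 0.00121).

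All 3 network-forming genes changed, with 2 higher and 1 lower in edgeR. Col8a1 and Col8a2 encode the chains of type VIII collagen, which forms hexagonal lattices in the cornea and vessel wall, and Col10a1 encodes type X collagen, a product of hypertrophic chondrocytes in the growth plate. Stretches of 120 bases before the start of each gene are printed from the RefSeq table (GRCr8, plus strand for all, 5′ to 3′). They set Col10a1 and Col8a2, which rose, beside Col8a1 and Col18a1, which fell. Capitals mark a TATA box (TATAAA) or a GC box (GGGCGG), searched on both strands, where a GC box on the other strand reads CCGCCC. The positions are chr20:39737416-39737535 for Col10a1, chr11:56246662-56246781 for Col8a1, chr5:143870649-143870768 for Col8a2 and chr20:11473525-11473644 for Col18a1.
Col10a1: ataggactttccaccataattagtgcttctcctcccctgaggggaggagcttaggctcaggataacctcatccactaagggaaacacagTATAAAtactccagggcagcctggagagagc
Col8a1: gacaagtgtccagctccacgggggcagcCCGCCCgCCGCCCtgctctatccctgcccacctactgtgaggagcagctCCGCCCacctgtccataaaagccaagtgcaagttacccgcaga
Col8a2: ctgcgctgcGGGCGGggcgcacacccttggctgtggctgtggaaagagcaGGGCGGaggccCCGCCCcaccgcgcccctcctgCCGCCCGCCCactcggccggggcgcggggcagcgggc
Col18a1: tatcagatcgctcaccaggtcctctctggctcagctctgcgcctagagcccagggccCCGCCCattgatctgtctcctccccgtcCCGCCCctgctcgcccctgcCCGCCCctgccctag

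The Col10a1 stretch held a TATA box 31 bases before the start and no GC box. The other 3 held GC boxes and no exact TATAAA, with 3 GC boxes in Col8a1, 5 in Col8a2 (overlapping matches included) and 3 in Col18a1. These stretches were 64.2%, 81.7% and 69.2% G and C. Col8a1 and Col8a2, which changed in opposite directions, held the same kind of box, and Col10a1 and Col8a2, which both rose, did not. Whether any box goes with the direction of change was not tested. Of the 42 collagen genes, 33 had a window in the table. Over the 250 bases before the start, 11.1% of the 36 windows of these genes held a TATA box, 33.3% a CCAAT box (CCAAT) and 52.8% a GC box, against 12.9%, 34% and 30.5% of all 33469 windows of the table. These matches describe letters and no binding.

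Col8a1 (ENSRNOG00000039668, chromosome 11, 42777628 to 42906424) had 3269, 3125 and 3184 CPM in rbMSC and 1245, 1339 and 1517 in rcMSC. It was lower in every rcMSC library, 2.34-fold (edgeR log2 fold change -1.22 ± 0.08 SE, adjusted p = 7.46e-07). Col8a2 (ENSRNOG00000010841, chromosome 5, 138585999 to 138612850) had 525, 533 and 529 CPM in rbMSC and 1117, 1219.9 and 1499 in rcMSC, higher in all 3 and 2.42-fold (edgeR log2 fold change 1.27 ± 0.10 SE, adjusted p = 4.7e-06). So the 2 chains of type VIII moved in opposite directions, with or without rcMSC replicate 3 (-1.30 and 1.14 without it).

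Col10a1 (ENSRNOG00000051399, chromosome 20, 38182494 to 38189494) rose the most of the 33 genes tested. It had 0.515, 0.649 and 0.832 CPM in rbMSC, 47 counts in all, and 20.4, 21.6 and 18.4 CPM in rcMSC, 1608 counts. The means were 0.665 ± 0.16 and 20.1 ± 1.6 CPM (SD, n = 3 each), with a fitted difference of 29.7-fold (edgeR log2 fold change 4.89 ± 0.17 SE, adjusted p = 9.14e-09). Unlike most collagen genes, it was not highest in rcMSC replicate 3, and without that library the value was 4.95. The gene lies within the span of Nt5dc1 on the opposite strand, which had 1841 counts in rbMSC and 3019 in rcMSC. No source used here states the strand setting of the counting, so reads from the overlap of this pair, or of Col4a1 and Col4a2, cannot be told apart. The same holds for Col4a3, which overlaps a protein-coding gene without a symbol on the opposite strand (ENSRNOG00000014851, 355 counts in rbMSC and 101 in rcMSC) over 316 bases. Whether that gene is itself a collagen chain was not looked up. On the same strand, Col20a1 overlaps Arfgap1 (1983 and 2316 counts) over 15320 bases and Col9a2 lies in the span of Rims3 (0 and 4 counts), so their values are uncertain where exons are shared.

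Markers of cartilage cells did not rise with Col10a1 and Col2a1. Of 8 chondrocyte markers, 4 were tested and all 4 (Acan, Comp, Hapln1 and Sox9) were lower in rcMSC, with summed levels of 442 to 451 CPM in rbMSC and 93.9 to 120 in rcMSC. Cnmd was at 0 in all libraries. Of 8 osteoblast markers, 7 were tested, of which 5 were lower and 1 (Runx2) higher, with sums of 751 to 774 and 122 to 334 CPM, and Bglap was at 0 in all libraries. Most of the rbMSC sums came from Spp1 (632, 649 and 653 CPM), which did not pass (edgeR adjusted p = 0.103). In rcMSC replicates 1 to 3 Spp1 had 33.5, 32.4 and 246 CPM, so the upper end of the rcMSC sums reflects replicate 3. Among all genes tested, 22.6% were higher and 23.2% lower. The part of either marker list in the changes of the collagen genes was not tested.

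The transmembrane collagens, cell surface proteins with a collagenous ectodomain, were all rare. Of 4, 3 were tested, with 1 higher, 1 lower and 1 not past the threshold. Col17a1 (ENSRNOG00000012110, chromosome 1, 246531367 to 246577632), a hemidesmosome protein of epithelia, had 0.702, 0.952 and 0.634 CPM in rbMSC and 2.77, 2.54 and 4.04 in rcMSC (edgeR log2 fold change 2.02 ± 0.28 SE, adjusted p = 0.000226), or 53 counts against 246. Epithelial markers did not rise with it: of 2 tested, Cdh1 was lower and Krt8 did not pass. Col25a1 (ENSRNOG00000050706, chromosome 2, 218755691 to 219153501), known from nerve and muscle, had 4.58, 3.81 and 4.16 CPM in rbMSC and 2.33, 1.66 and 1.48 in rcMSC (edgeR log2 fold change -1.19 ± 0.21 SE, adjusted p = 0.0012). Col23a1, at 0.561 to 0.84 CPM in the 6 libraries, did not pass (edgeR log2 fold change 0.05, adjusted p = 0.907). Col13a1 had 13 counts in rbMSC and 14 in rcMSC and was not tested.

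Type VI collagen forms beaded filaments around cells from the products of Col6a1, Col6a2 and Col6a3. Of the 9 genes outside the main groups, 4 were tested, and Col6a3 was the 1 that passed, as lower. Col6a3 (ENSRNOG00000019648, chromosome 9, 91361583 to 91439471) had 1214, 1165 and 1140 CPM in rbMSC and 488, 512 and 844 in rcMSC (edgeR log2 fold change -0.93 ± 0.21 SE, adjusted p = 0.0114). In this gene rcMSC replicate 3 lay between the groups, and without it the value was -1.23 (edgeR adjusted p = 8.45e-37). With no low-count filter the call was lost (adjusted p = 0.0572).

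Col6a1 and Col6a2, tandem neighbours on chromosome 20, overlapped between groups. Col6a1 had 1105, 1028 and 1093 CPM in rbMSC and 915, 940.2 and 1205 in rcMSC (edgeR log2 fold change -0.08, adjusted p = 0.557). Col6a2 had 1295, 1239.6 and 1312 against 1208, 1259 and 1601 (edgeR log2 fold change 0.08, adjusted p = 0.531). Again rcMSC replicate 3 was the highest of all 6 libraries for both, and without it Col6a1 passed as lower (-0.21, edgeR adjusted p = 1.15e-07) and Col6a2 did not (-0.06, 0.119). Col6a1 also passed as lower with all 6 libraries in limma voom with sample weights (-0.19, adjusted p = 0.00454). With the length trend removed, Col6a2 passed as higher (0.23, edgeR adjusted p = 0.036). Col7a1, of anchoring fibrils, had 51 and 53 counts and did not pass (edgeR log2 fold change -0.10, adjusted p = 0.889).

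The minor type VI genes Col6a4, Col6a5 and Col6a6 stand next to each other on chromosome 8 on 1 strand. None reached the count needed for the main test. For Col6a4 the rbMSC libraries together held 23 counts and the rcMSC libraries 1, 26.4 times higher in rbMSC (exact binomial 95% interval 4.29 to 1090). Col6a5 had 23 and 4 counts, 6.61 times higher in rbMSC (2.26 to 26.3). Col6a6 went the other way with 4 and 34 counts, 7.40 times higher in rcMSC (2.64 to 28.7). These intervals cover counting error only. The span of Col6a6 also overlaps Pik3r4 on the opposite strand over 10163 bases (3875 counts in rbMSC and 4000 in rcMSC). As the strand setting of the counting is not stated, the few Col6a6 counts are uncertain. Of the other untested genes, Col22a1 had 8 and 13 counts, Col26a1 had 2 and 2, and Col28a1 had 0 in rbMSC and 5 in rcMSC; the exact interval of its ratio (rcMSC over rbMSC) starts at 0.798 and so includes no difference.

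Per kilobase of gene model, the collagen counts of rcMSC were more fibrillar. Fibrillar genes made up 75.3% ± 0.30 of length-scaled collagen counts in rbMSC and 86% ± 0.23 in rcMSC (SD, n = 3 each), and type I alone 52% ± 0.42 and 61.9% ± 0.70. The network share went from 9.65% ± 0.12 to 4.32% ± 0.15 and the basement membrane share from 6.82% ± 0.07 to 3.15% ± 0.25. FACIT genes lay at 3.94% ± 0.061 and 3.71% ± 0.19. The beaded filament and other genes took 4.26% ± 0.087 and 2.83% ± 0.11. For each of these shares an exact two-sided permutation test gave p = 0.1, the smallest possible, and the groups did not overlap. The fibrillar share of rcMSC replicate 3 was 85.9%, between the 86.3% and 85.8% of replicates 1 and 2. Its FACIT share was 3.49% against 3.82% and 3.83%, a gap larger than that between the group means, and its basement membrane share was 3.43% against 2.94% and 3.07%.

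**Figure D3:**
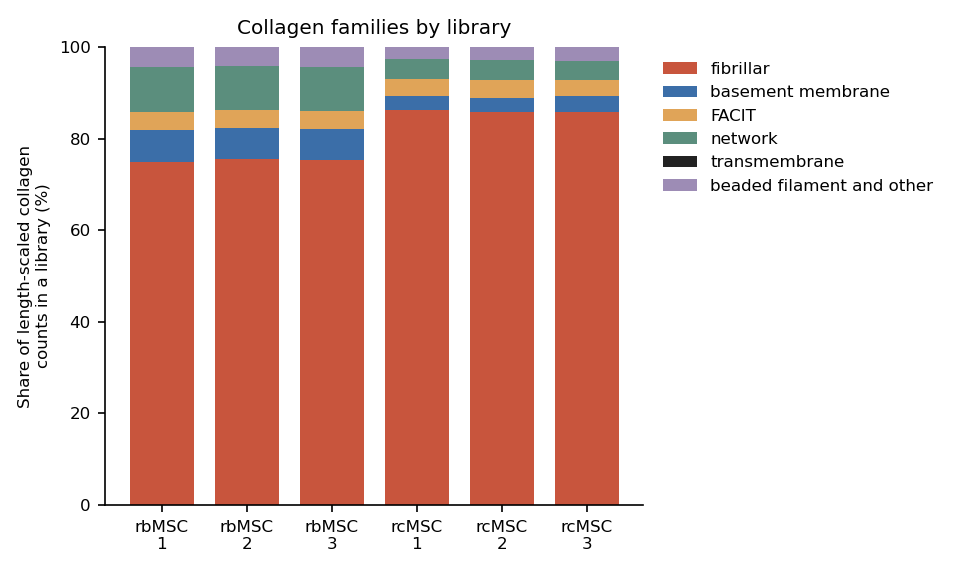
Share of each collagen family in the length-scaled collagen counts of each library, in percent, as stacked bars for the 3 rbMSC and 3 rcMSC libraries. The fibrillar share is at most 75.6% in rbMSC and 85.8% to 86.3% in rcMSC, and the transmembrane share, at most 0.00794%, is too thin to see.

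On the same length-scaled level, the order of the most abundant genes was similar in both groups at the top. Col1a1 had 3639 ± 30.1 CPM per kilobase in rbMSC (SD, n = 3 here and for the levels that follow) and Col1a2 3389 ± 17.2, and in rcMSC they had 6504 ± 788 and 4964 ± 659. Col3a1 came next (1301 ± 15 and 2196 ± 339.6). In rbMSC, Col8a1 (1186 ± 26.9) came after Col3a1, then Col5a2 (788 ± 7.4), Col5a1 (569.8 ± 10.2), Col4a1 (480.3 ± 8.4) and Col11a1 (441 ± 10.9), each apart from its neighbour by more than the spread. In rcMSC, Col5a2 (884 ± 172) and Col11a1 (760.3 ± 18.7) followed Col3a1, then Col5a1 (584 ± 121), Col12a1 (532 ± 43.8) and Col8a1 (508 ± 51.4), where neighbours from Col5a2 to Col8a1 did not all differ beyond their spread.

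Ratios between collagen chains, 6 within a type and 2 between types, were compared within each library, which leaves out the scaling between libraries. The type I protein holds 2 chains from Col1a1 and 1 from Col1a2. Per kilobase, Col1a1 over Col1a2 was 1.08, 1.06 and 1.08 in rbMSC and 1.35, 1.29 and 1.30 in rcMSC. Col8a1 over Col8a2 was 10.4, 9.78 and 10 in rbMSC and 1.86, 1.83 and 1.69 in rcMSC, the ratio that differed most of the 8 computed. Col6a3 over Col6a1 was 0.461 ± 0.019 and 0.25 ± 0.039, and Col11a1 over Col5a1, chains that share mixed type V and XI molecules in some tissues, was 0.773 ± 0.014 and 1.33 ± 0.22.

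Smaller steps were found for Col5a1 over Col5a2 (0.723 ± 0.0099 and 0.66 ± 0.013), Col6a1 over Col6a2 (0.977 ± 0.015 and 0.877 ± 0.0064) and Col3a1 over Col1a1 (0.358 ± 0.0023 and 0.337 ± 0.016). In these 7 ratios the groups did not overlap, with an exact two-sided permutation p = 0.1 each, the smallest possible, and a Benjamini-Hochberg adjusted p = 0.114 over the 8 exact tests. For Col4a1 over Col4a2 the groups overlapped, at 1.91 ± 0.037 and 1.98 ± 0.036 (exact permutation p = 0.2, adjusted p = 0.2), so that the ratio of this divergent pair differed by little while both genes fell.

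**Figure D4:**
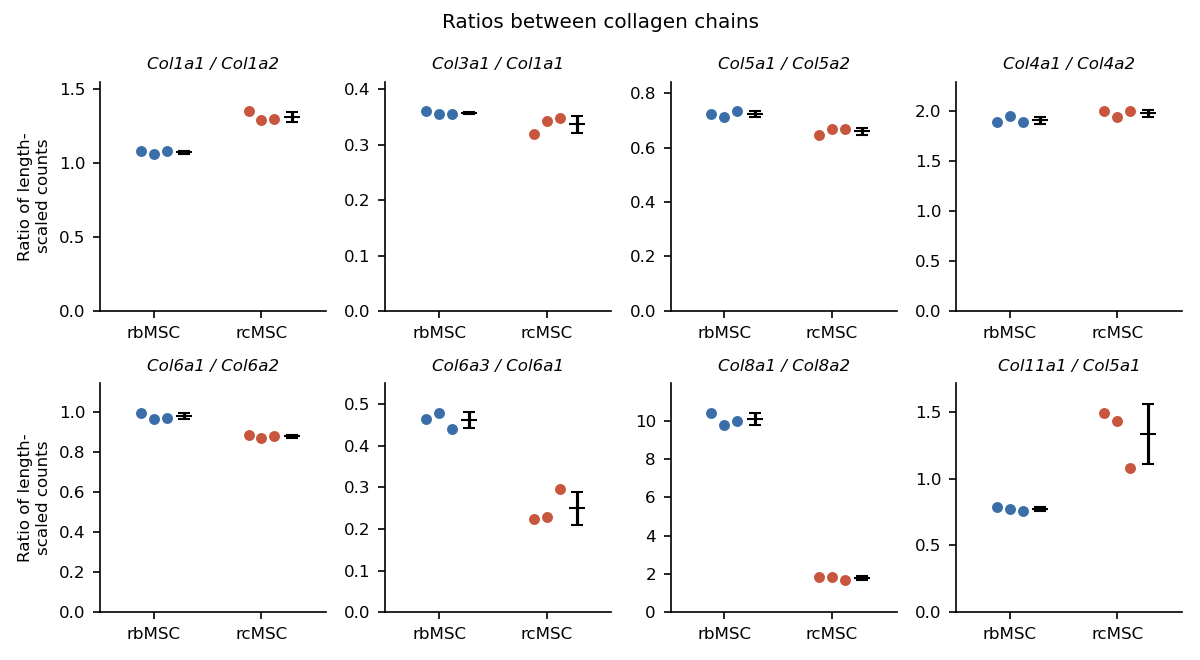
Ratios of length-scaled counts between pairs of collagen chains in each library (points, blue for rbMSC and red for rcMSC), with the mean and SD of 3 libraries in black, on axes that start at 0. Col8a1 over Col8a2 lies between 9.78 and 10.4 in rbMSC and between 1.69 and 1.86 in rcMSC, and Col4a1 over Col4a2 overlaps.

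Collagen chains need a set of enzymes and chaperones of the endoplasmic reticulum, which hydroxylate proline and lysine and keep the chains apart until they fold. Of 22 such folding and modification genes listed, 21 were in the table and tested. In edgeR, 10 were higher, 4 were lower and 7 did not pass, with a median log2 fold change of 0.28. The steps upward were small. Plod1, a lysyl hydroxylase of the helix, had 130.5, 125 and 128 CPM in rbMSC and 197, 206 and 203 in rcMSC (edgeR log2 fold change 0.66 ± 0.05 SE, adjusted p = 4.5e-06). Creb3l1, a transcription factor that drives collagen secretion in bone, had 80.8, 79.4 and 82.4 CPM in rbMSC and 123, 124 and 107 in rcMSC (edgeR log2 fold change 0.55 ± 0.07 SE, adjusted p = 0.000109). The collagen chaperone Serpinh1 rose by a log2 fold change of 0.28. P3h2, a prolyl 3-hydroxylase linked with basement membrane collagen, fell from 5.66, 4.98 and 5.11 CPM to 1.57, 1.73 and 2.12 (edgeR log2 fold change -1.54 ± 0.18 SE, adjusted p = 7.62e-05). In the list 12 genes were higher and 5 lower without rcMSC replicate 3, and with the length trend removed 12 and 2.

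Outside the cell, proteases remove the propeptides and lysyl oxidases crosslink the fibrils. Of 13 genes listed for these steps, 12 were in the table and 11 tested, and 5 were higher, 4 lower and 2 did not pass. Tll1, a tolloid-like C-proteinase, had 1003, 957 and 985 CPM in rbMSC and 138, 147 and 106 in rcMSC (edgeR log2 fold change -2.91 ± 0.11 SE, adjusted p = 6.05e-08). Its relative Bmp1 rose by 0.21 on the log2 scale (edgeR, adjusted p = 0.0268). Among the N-proteinases, Adamts2 rose from 55.4, 53.7 and 52 CPM to 176, 181 and 220.1 (edgeR log2 fold change 1.84 ± 0.09 SE, adjusted p = 1.05e-07). Adamts3 rose from 1.82, 0.822 and 0.99 CPM to 10.1, 8.25 and 4.04 (edgeR log2 fold change 2.63 ± 0.40 SE, adjusted p = 0.000953), and Adamts14 fell (log2 fold change -1.62). Of the lysyl oxidases, Lox rose (log2 fold change 1.41), Loxl3 and Loxl4 fell (-0.90 and -0.54), and Loxl1 and Loxl2 did not pass.

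Of 10 collagen receptor genes listed, 9 were in the table and 8 tested, with 3 higher, 3 lower and 2 not past the threshold, or 3 and 5 without rcMSC replicate 3. The alpha subunits of the collagen-binding integrins changed in both directions. Itga1, which binds type IV collagen well, had 464, 464 and 440.3 CPM in rbMSC and 86.2, 79.7 and 112 in rcMSC (edgeR log2 fold change -2.30 ± 0.12 SE, adjusted p = 5.41e-07). Itga11, a receptor for fibrillar collagen on stromal cells, had 2716, 2755 and 2656 CPM in rbMSC and 1100, 1127 and 1343 in rcMSC (edgeR log2 fold change -1.19 ± 0.08 SE, adjusted p = 1.23e-06). Itga2 was low and rose from 1.54, 1.12 and 1.39 CPM to 5.32, 5.52 and 10.5 (edgeR log2 fold change 2.39 ± 0.30 SE, adjusted p = 0.00017). The discoidin receptor Ddr2 rose by 0.51 on the log2 scale (edgeR, adjusted p = 3.56e-05).

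Of 8 genes that cleave collagen or its fragments, 4 were higher, 2 lower and 2 did not pass. The collagenase Mmp13 fell from 48, 48.3 and 45.6 CPM to 6.99, 9.17 and 6.44 (edgeR log2 fold change -2.65 ± 0.12 SE, adjusted p = 6.37e-08). Mmp8, the neutrophil collagenase, had 8.28, 10.1 and 9.31 CPM in rbMSC and 2, 2.5 and 0.96 in rcMSC (edgeR log2 fold change -2.33 ± 0.26 SE, adjusted p = 6.89e-05). Fap, a protease of fibroblasts that acts on collagen fragments, rose from 24.2, 23.4 and 26.1 CPM to 64, 60.7 and 64.1 (edgeR log2 fold change 1.36 ± 0.07 SE, adjusted p = 1.87e-07). The gelatinase Mmp2 rose by a log2 fold change of 1.24. In all 3 of Mmp13, Mmp8 and Fap the groups did not overlap. Of the 4 lists, 66.7%, 81.8%, 75% and 75% of the genes tested passed, against 45.8% of all genes. The lists were chosen with earlier results of these data known, so these shares are not read as a test of the lists.

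**Figure D5:**
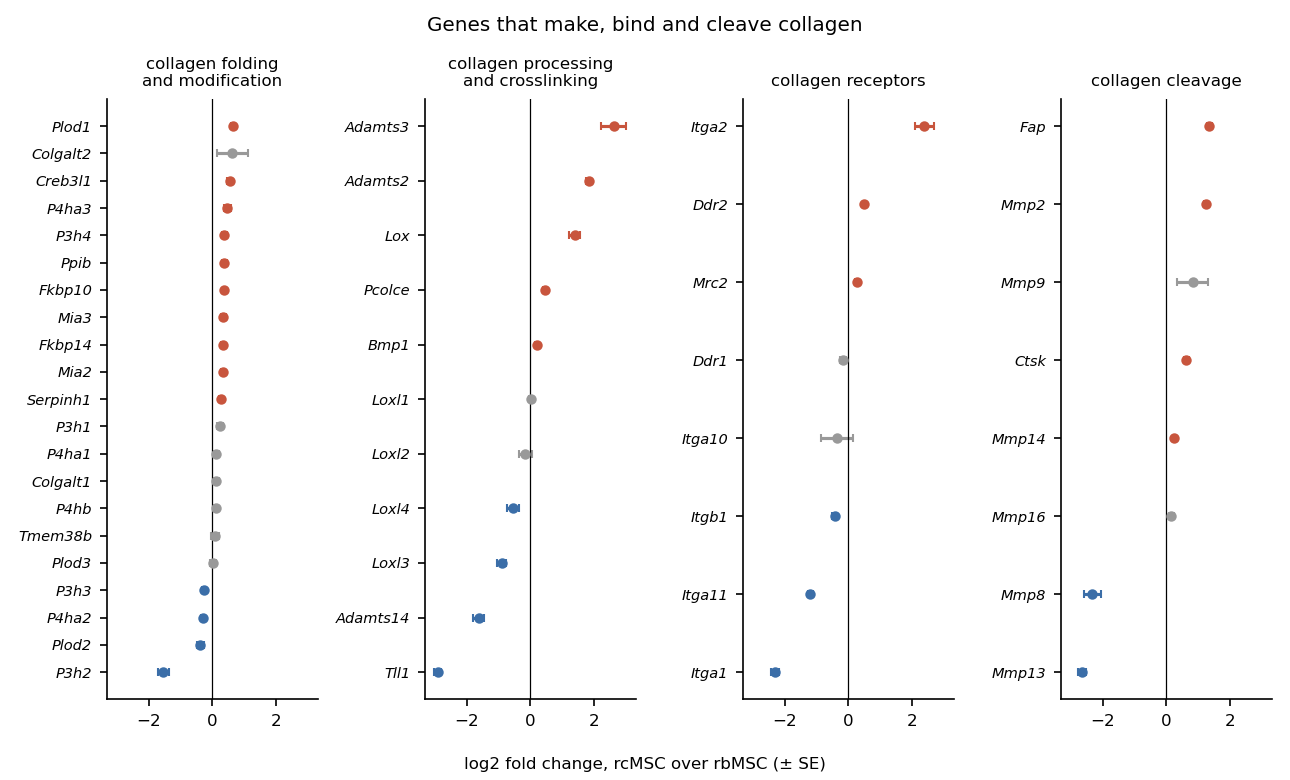
Log2 fold change (rcMSC over rbMSC, bars of 1 standard error) of the genes tested that fold, process, bind and cleave collagen, in 4 panels on 1 scale. Red points passed the edgeR threshold upward, blue points downward, and grey points did not pass. The folding genes lie between -1.54 and 0.66, while the other panels reach past 1 in both directions, from Tll1 at -2.91 to Adamts3 at 2.63.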

How the data were processed

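RNA was sequenced from 6 libraries as paired reads of 150 nt. The labels' protocols state that the authors used Trim Galore 0.6.7 and Trimmomatic 0.39 for trimming, STAR 2.7.9a for mapping to mRatBN7.2 and featureCounts 2.0.1 for counting in genes. The submitters' processing notes also list DESeq2 1.20.0. The deposited values are raw counts, and the Length column gave the gene model lengths. No source used here states the strand setting or the annotation release.

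Groups came from the library titles. The test was the edgeR 4.0.16 quasi-likelihood F test (R 4.3.3, TMM, filterByExpr, robust dispersions), with Benjamini-Hochberg adjustment over 14836 genes and a threshold of 0.05. SE is the fold change over the square root of F. Alternatives used RLE, upper quartile or collagen-free scaling, other filters, DESeq2 1.42.0, limma 3.58.1 voom, a loess length trend (span 0.5), a block for the replicate number, and leaving out each library. The fits were tested on simulated data. Members follow from the symbol rule alone, but the rule and the lists were chosen with earlier results of these data known. By rule, per-library values are given for collagen genes called with a 2-fold change or above 100 CPM, and for the 3 largest called changes per list with a mean log2 CPM of 1 or more. Other named list genes were chosen after their values were seen. All library pairs of a group differed by more than counting noise.

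Promoter sequences are from RefSeq (GRCr8), matched by symbol.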

Additional observations from a re-analysis of the deposited data

How the results depend on the processing

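Collagen genes past the threshold numbered 10 higher and 13 lower. Under every alternative run these counts stayed within 1.5 times, at 10 to 13 higher and 11 to 16 lower. The number of collagen genes tested differed between runs, from 31 to 42, so similar totals need not hold the same genes. With no low-count filter all 42 entered, and 10 were higher and 12 lower. Col15a1, Col2a1, Col4a1 and Col6a3 lost their calls there, and genes outside the 33 made up part of those totals. Of 345 alternative values of the 23 called genes, 334 kept direction and call, 11 (in Col15a1, Col20a1, Col2a1, Col6a3 and Col4a1) lost the call, and 0 reversed. With the replicate number as a block, 10 were higher and 13 lower, with 0 lost calls among the 23. Deviations of same-numbered libraries correlated at -0.027, 0.018 and -0.052. The labels do not state whether the numbers pair the libraries, and these values do not settle it.

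Among the 10 genes not called, signs turned as follows. Without rcMSC replicate 3, Col5a1 was at -0.15, Col5a2 at -0.01, Col6a2 at -0.06 and Col23a1 at -0.03. With limma voom, Col5a1 was at -0.11, Col6a2 at -0.03 and Col23a1 at -0.01, and Col23a1 was at -0.09 without rbMSC replicate 1. With the length trend removed, Col6a1 was at 0.06 and Col7a1 at 0.08. Col7a1 was at 0.38 without rbMSC replicate 3 and at 0.21 and 0.13 without rcMSC replicate 1 and 2, and Col5a3 at 0.05 without either of the latter. With each library left out in turn, Col5a1 lay between -0.15 and 0.14, Col5a2 between -0.01 and 0.26, Col5a3 between -0.96 and 0.05, Col6a2 between -0.06 and 0.16, Col7a1 between -0.84 and 0.38 and Col23a1 between -0.09 and 0.18. The cause was not tested. With 1 count worth 0.0364 to 0.0468 CPM, the 9 genes below the filter could show only large differences. They were left out of the main run but not of all runs, since all 42 collagen genes entered DESeq2 and the unfiltered run. DESeq2 gave 11 higher and 15 lower. The 23 genes called in the main run kept their calls in DESeq2, and the rest were among these 9.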

Other observations

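The third rcMSC library also stood away from the other rcMSC libraries in genes that modify and crosslink collagen. Lox, the main lysyl oxidase, had 1197 and 1148 CPM in rcMSC replicates 1 and 2 and 1818 in replicate 3, against 502 to 543 in rbMSC. The lysyl hydroxylase Plod2 had 917 and 900.1 CPM in rcMSC replicates 1 and 2 and 1242 in replicate 3, where rbMSC had 1313 to 1327. Without rcMSC replicate 3, 7 further genes of the 4 lists passed in edgeR: P4ha1 (log2 fold change 0.25), P4hb (0.08) and Mmp16 (0.18) as higher, and Plod3 (-0.11), Loxl2 (-0.45), Ddr1 (-0.31) and Itga10 (-1.19) as lower. These genes were chosen after their values were seen. Over all genes, calls rose too without that library, from 3351 higher and 3445 lower of 14836 to 4512 and 4558 of 15096.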
